A study of Saccharomyces cerevisiae BY4741 with 25 samples.

Results

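RRC1 is a budding yeast mutant whose library title names rrn9. Its pooled genomic DNA was compared with that of the parental pool, and the comparison rests on 161 variant calls. A call was counted when it had at least 10 reads and its chromosome, position, reference allele and alternate allele did not occur together as a row of the parental list. The RRC1 list held 503 calls and the parental list 447. Of the RRC1 calls, 315 were in the parental list, and 27 absent ones had under 10 reads. In the other direction, 132 of the 447 parental calls were absent from the RRC1 list. At 21 of these, RRC1 had a call of another allele at the position. Just inside that limit were calls in FLO9 (100% of 10 reads), near MDJ1 (100% of 11 reads) and near PCL6 (45% of 11 reads). Just outside it were a call in FLO9 on 88% of 9 reads and an intergenic call on chromosome 11 on 44% of 9 reads.

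Both libraries are genomic DNA from stationary-phase cells of the BY4741 background, grown in YPD at 30 °C. The RRC1 library combined clones with the mutant phenotype that were grown from spores after a backcross, from the strain YTT67_alpha25 and with both mating types present. The parental library combined the strains YTT66 and YTT67. The series' design text says that such mutants were sought because SIR2 had lost its repression, and the series holds 25 samples, of which 9 are genome libraries. How many clones were pooled, how many backcrosses were made and which mutagen was used was not given in the sources used here. There was 1 library per group, so no test compares the groups, and every test below compares reads within a library or between 2 libraries. Reads of amplified libraries are not independent molecules, and all intervals cover counting error only.

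RRN9 encodes a subunit of the upstream activating factor (UAF). UAF also contains Rrn5, Rrn10, Uaf30 and histones H3 and H4, binds upstream of the promoter of the ribosomal RNA genes and helps bring TATA-binding protein and RNA polymerase I to it. SIR2 encodes a histone deacetylase that keeps the repeated ribosomal RNA genes stable in copy number. In a pool of spores chosen for a mutant phenotype, the causal allele is carried by nearly all cells, an unlinked heterozygous change by about 50% of them, and a linked change by a share between these.

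The deposited percent gives the share of reads with the alternate allele. Over the 161 calls it ran from 11 to 100%, with a median of 45% and a mean of 49.5 ± 25.8 (SD over calls). Reads per call had a median of 59 and ran from 10 to 325. By the deposited effect, 56 calls (34.8%) were missense, 32 (19.9%) synonymous, 37 (23.0%) intergenic, 16 (9.94%) downstream and 9 (5.59%) upstream of a gene. A further 5 were in noncoding RNA genes or pseudogenes, 4 were frameshifts, 2 were in-frame insertions or deletions and 0 introduced a stop. In all, 62 calls (38.5%) changed a protein, in 55 genes. A change in any annotated reading frame counted, dubious frames and overlapping frames included. In total, 104 genes or other named features were hit within or nearby. Calls were most numerous on chromosome 4 (14 calls) and fewest on chromosome 11 (2 calls), in counts not scaled to chromosome length. Chromosomes 1, 7, 10, 14, 15 and 16 each held 13 calls. A subset of 76 calls (47.2%) is called well supported here. Their score was 200 or higher, the parental list had no call at their position, and at most 1 other mutant list did. This limit was set after looking at the data, and all 76 were in fact found in no other list.

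**Figure D1:**
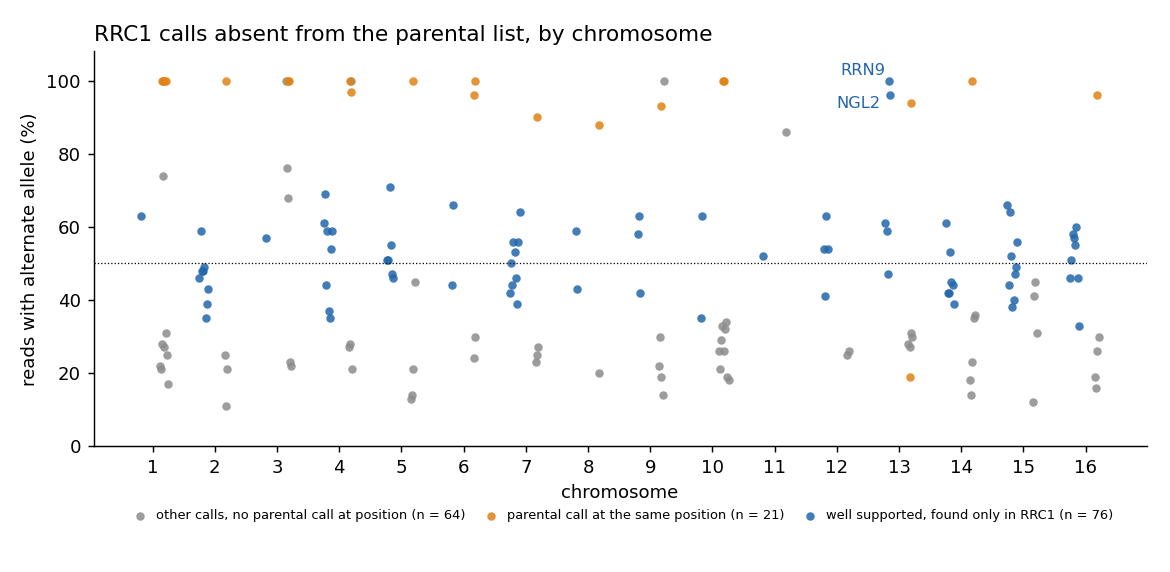
Percent of reads with the alternate allele (vertical axis) for the 161 RRC1 calls absent from the parental list, by chromosome (horizontal axis, spread sideways for legibility). Blue points are the 76 well-supported calls, orange points the 21 calls at a position with a parental call and grey points the other 64, and the dotted line marks 50%. RRN9 and NGL2 on chromosome 13 are the only blue points at 90% or more.

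The calls fell into kinds with very different shares. G:C to A:T changes numbered 86 (53.4%), with shares of 21 to 100% and a median of 50.5%. The 40 other single-base changes ran from 17 to 100%, with a median of 27.5%. A change in the length of a dinucleotide repeat accounted for 16 calls with a median of 19%, and a change in the length of a homopolymer run for 12 calls with a median of 96.5%. The other 7 were short insertions or deletions.

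The length changes are shown because their form sets them apart from the single-base changes. Each is printed 5′ to 3′ on the reference strand as the deposited list gives it, first the reference allele and then the alternate, with the bases present in only 1 of the alleles in capitals. Their place within a repeat is arbitrary.
LEU2 upstream, reference: aatatatatatatatAT
LEU2 upstream, alternate: aatatatatatatat
AME1 downstream, reference: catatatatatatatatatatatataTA
AME1 downstream, alternate: catatatatatatatatatatatata
YMR057C coding, reference: ttatatatatatatatatatatatatatAT
YMR057C coding, alternate: ttatatatatatatatatatatatatat
MDJ1 upstream, reference: cttttttttttttt
MDJ1 upstream, alternate: ctttttttttttttTT
ASG1 coding, reference: aaataataat
ASG1 coding, alternate: aaataataatAAT
The loss of an AT unit upstream of LEU2 (chromosome 3, position 91287) was on 100% of 174 reads. The loss in the AT repeat downstream of AME1, a kinetochore gene, was on 21% of 56 reads, and that in the dubious reading frame YMR057C on 31% of 29 reads. The longer T run upstream of MDJ1, a mitochondrial chaperone gene, was on 100% of 11 reads. The added AAT unit in ASG1, the gene of a zinc-finger regulator of stress genes, was on 100% of 44 reads.

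RRN9 was the gene that the title names, and its change was on every read. The call lies in the coding sequence of RRN9 (YMR270C) on chromosome 13 at position 805498 (C805498T), in the coordinates of the authors' files, with no genome build named in the sources used here. Codon cGg became cAg, which replaces arginine with glutamine (R309Q). All 77 reads carried it (100%, exact Clopper-Pearson 95% interval 95.3 to 100%), and against 50% the two-sided exact binomial test gave an adjusted p = 1.00e-21 (Benjamini-Hochberg over 161 calls). RRN9 lies between TMA23 and URA10 in the R64 annotation. No call was made in RRN5, RRN10 or UAF30. The parental list held 0 calls in RRN9, but it gives no depth where nothing was called, so parental reads at the position are not known.

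A second change on the same chromosome was almost as frequent. NGL2 (YMR285C), the gene of an endonuclease that acts in 5.8S ribosomal RNA processing, carried V451I (C840341T) on 96% of 64 reads (interval 89.2 to 99.6%, exact binomial test, adjusted p = 5.19e-15). It lies 34.8 kb from the RRN9 change, and 15 protein-coding genes separate the genes in R64. The difference of 4 percentage points between RRN9 and NGL2 did not pass the test (two-sided Fisher's exact test, adjusted p = 0.409 over 22 close pairs of calls).

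Of the other 9 calls of chromosome 13, the well-supported ones were all at the far side of the chromosome and close to 50%. At its left end, 796 kb from RRN9, an intergenic call at position 9426 was on 61% of 73 reads. TAF8, the gene of a subunit of the general transcription factor TFIID, carried E148K on 59% of 62 reads at 762 kb. BUD22 carried a synonymous change on 47% of 61 reads at 506 kb. All 3 intervals included 50% (49.5 to 72.8%, 46.4 to 71.9% and 34.6 to 60.7%). Between BUD22 and RRN9 and beyond NGL2 no well-supported call was made, so the distance over which the share falls from RRN9 was not measured here.

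Between RRN9 and NGL2 lay 1 other call, intergenic at position 822630 and 17.1 kb from RRN9, on 30% of 13 reads with a score of only 12.3. Its interval ran from 9.09 to 61.4%. Low shares were also seen at PPZ1, a protein phosphatase gene with an AT repeat downstream (19% of 42 reads), and at YMR057C (31% of 29 reads). The call downstream of ERR3, 116 kb beyond RRN9, was a homopolymer change on 94% of 18 reads with a score of 9.92. The parental list gave that position with a shared allele on 100% of 18 reads.

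**Figure D2:**
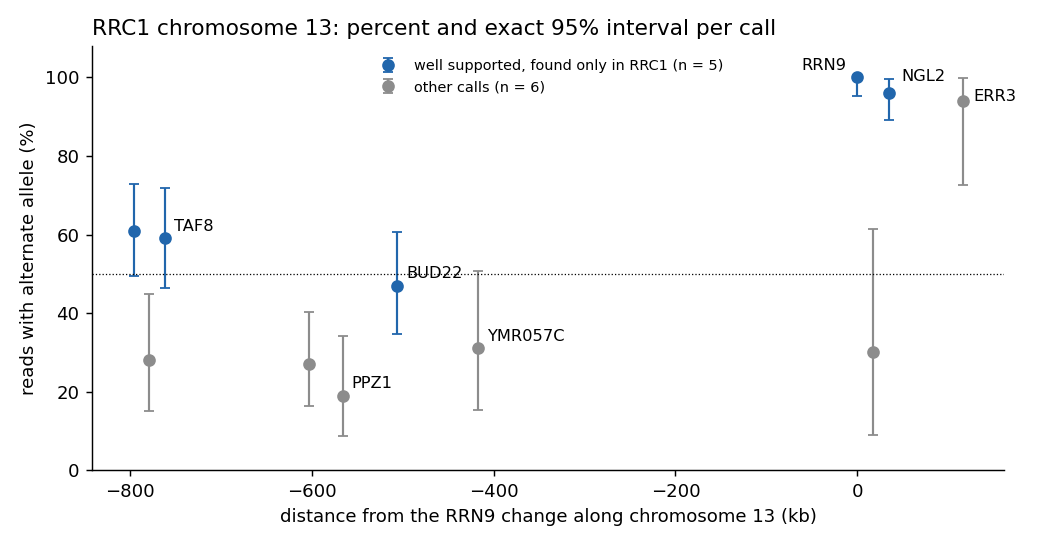
Percent of reads with the alternate allele for the 11 RRC1 calls of chromosome 13 (vertical axis) against distance from the RRN9 change in kb (horizontal axis). Points are calls, bars are exact 95% binomial intervals, blue marks the 5 well-supported calls and grey the other 6, and the dotted line marks 50%. RRN9 (100%) and NGL2 (96%) stand apart from TAF8 (59%) and BUD22 (47%) on the far side of the chromosome.

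Near-fixed calls extended beyond RRN9 and NGL2. A call was near-fixed at a share of at least 90% with an adjusted p under 0.05 by the exact binomial test. Of the 161 calls, 24 (14.9%) were near-fixed, against 206 of all 429 RRC1 calls with at least 10 reads (48.0%) and 182 of the 268 that are in the parental list (67.9%). The 24 changed a protein in 7 cases, namely RRN9, NGL2, R313K in the flocculin gene FLO9, P50R in the subtelomeric gene COS5, D888ND in ASG1, a frameshift in ALT2, a gene related to alanine transaminases, and a frameshift in the reading frame YCR024C-B.

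Most of these calls also had a parental counterpart at the same base. The parental list had a call at the position of 19 of the 24, and in all 19 the parental row shared an alternate allele with the RRC1 row. FLO9 at position 25506 was on 100% of 24 reads in RRC1, and the parental list gave the same position with a further allele on 96% of 31 reads. COS5 P50R was on 100% of 32 reads, and the parental list gave that position on 100% of 37 reads. FLO1, another flocculin gene, was at 100% of 25 reads at position 206177 and at 100% of 30 parental reads. The ALT2 change was on 100% of 36 reads, and the parental row at the position was at 100% of 34 reads.

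Near-fixed calls without a parental call at the position were 5, at RRN9, NGL2, ASG1, the upstream repeat of LEU2 and the transfer RNA feature tS_AGA_D3. For ASG1 and tS_AGA_D3 the parental list had a call within 5 bases. That next to ASG1 was on 88% of 44 reads and that next to tS_AGA_D3 on 100% of 60 reads. The ASG1, tS_AGA_D3 and LEU2 positions were called in 6, 7 and 5 other mutant lists. RRN9 and NGL2 were the 2 near-fixed calls with neither a parental call at the position nor a call there in another mutant list.

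The 76 well-supported calls were almost all of 1 class. Of them, 74 were G:C to A:T (97.4%, exact interval 90.8 to 99.7%), and the exceptions were E146D in SAS5 (C744844A) and N108D in YOR203W (A722886G). By effect, 42 were missense, 16 synonymous, 14 intergenic, 3 in noncoding features and 1 upstream of a gene. Depth ran from 50 to 103 reads, with a median of 70.5. Low shares seldom reach such a score, which bears on every average over these 76 calls.

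The missense changes are described below by the known role of each gene, an order made after the hits were seen. Among genes of chromatin and transcription, STH1, the ATPase of the RSC remodelling complex, had A1329T on 63% of 61 reads. SPT16, a subunit of the histone chaperone FACT, had P354L on 42% of 75 reads, and EAF1, the scaffold of the NuA4 acetyltransferase, had E176K on 35% of 53 reads. HAT1, a histone acetyltransferase gene, had D256N on 60% of 83 reads. SAS5, of the SAS complex that acetylates histone H4 and limits the spread of silent chromatin, had its change on 47% of 65 reads. With TAF8, none of these 6 passed the exact binomial test against 50%, and adjusted p ran from 0.0839 for STH1 to 0.852 for SAS5.

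Among genes of ribosome assembly and RNA metabolism, NOP14 and UTP4, both of the small subunit processome, had R64K on 61% of 55 reads and R189K on 37% of 66 reads. RSA1, an assembly factor of the large subunit and of small nucleolar particles, had E288K on 46% of 75 reads. PRP4, a splicing factor gene that overlaps the reading frame YPR177C, had G98R on 46% of 73 reads. PUF3, which binds messenger RNAs of mitochondrial proteins, had A281T on 54% of 50 reads. EDC3, an activator of messenger RNA decapping on chromosome 5, had M113I on 71% of 56 reads, and this was the highest share among missense calls outside chromosome 13 in the well-supported set (exact binomial test, adjusted p = 0.00544). Genes of the mitochondrial ribosome were hit at MRPL6 (E192K, 43% of 76 reads), MRPS18 (A144T, 61% of 77 reads) and MRPL10 (A98T, 53% of 89 reads).

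Chromosome maintenance was represented by RAD54 and CHL1. RAD54, the DNA translocase of homologous recombination, had A526T on 44% of 72 reads. CHL1, a helicase gene of sister chromatid cohesion, was the only gene with more than 1 well-supported missense call. Its D192N was on 57% of 61 reads and its V365M on 55% of 65 reads, 519 bases away, so that fragments may span both.

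Among genes of signalling and nutrient uptake, PIB2, a glutamine-dependent activator of TORC1, had R436K on 46% of 54 reads, and GNP1, a glutamine permease, had A352T on 59% of 67 reads. VID24 and VID28, both subunits of the GID ubiquitin ligase, had S9N on 39% of 58 reads and R386C on 42% of 75 reads. STD1, of glucose signalling, had P165S on 64% of 50 reads. RGA1, a GTPase-activating protein for Cdc42, had G717D on 52% of 85 reads, and MBR1 had P306L on 52% of 51 reads.

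Among metabolic and secretory genes, URA2, the first enzyme of pyrimidine synthesis, had E1024K on 35% of 70 reads (exact binomial test, adjusted p = 0.0502). ATG26, a sterol glucosyltransferase, had E816K on 63% of 69 reads, and MAP2, a methionine aminopeptidase, had R328K on 59% of 71 reads. QRI1, which makes UDP-N-acetylglucosamine, had D283N on 44% of 76 reads. PDX3 (V121I, 48% of 78 reads) acts in vitamin B6 metabolism, MAL32 (A144V, 43% of 74 reads) encodes a maltase with a near-identical copy, FAA1 (A315V, 49% of 59 reads) activates fatty acids and ERD1 (A299T, 54% of 64 reads) retains proteins of the endoplasmic reticulum.

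The remaining missense calls lay in poorly described or repeated genes. PAU20, of the seripauperin family, had A48V on 66% of 62 reads (exact binomial test, adjusted p = 0.0353). The subtelomeric YAR064W had G24R on 63% of 77 reads (exact binomial test, adjusted p = 0.04996), and the subtelomeric YBL113C had C493Y on 46% of 103 reads. YNL303W had S59F on 42% of 73 reads and YNL018C had R565H on 39% of 73 reads. The reading frame YCL022C (M6I, 57% of 70 reads) overlaps the kinase gene KCC4, in which the change is synonymous. The change in YOR203W (40% of 54 reads) lies 25 bases upstream of DED1, a helicase gene of translation. Families and subtelomeres share sequence, and the part of similar copies in these shares was not tested.

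Changes that left the protein unaltered covered a similar range. The 40 missense calls of this set other than RRN9 and NGL2 ran from 35 to 71% with a mean of 50.9 ± 9.51 (SD over calls). The 16 synonymous calls ran from 35 to 63% with a mean of 50.2 ± 7.93, and the 14 intergenic calls from 33 to 69% with a mean of 51.9 ± 9.94. Among the synonymous calls, PMT4, a protein mannosyltransferase gene, was at 63% of 76 reads. Genes of messenger RNA turnover were XRN1, the cytoplasmic exonuclease (50% of 86 reads), PAN2, of the deadenylase (53% of 67 reads), and SWT1, a nuclear endonuclease (38% of 83 reads). Lipid kinase and lipid transfer genes were STT4 (54% of 88 reads), FAB1 (44% of 74 reads) and PDR17 (45% of 75 reads). Genes of vacuole traffic and autophagy were MON1 (56% of 85 reads) and ATG29 (51% of 81 reads). The phosphatase gene PTC7 was at 59% of 66 reads, PRM4 at 58% of 81 reads and the reading frame YIL166C at 58% of 74 reads. None of the synonymous calls other than that in YBR096W passed the test against 50%. The noncoding hits were the transfer RNA feature tD_GUC_L1 (41% of 55 reads), RUF23 (66% of 68 reads) and the pseudogene YOL153C (44% of 69 reads). The single upstream call lay 59 bases from UTR2, a cell wall enzyme gene, on 51% of 74 reads.

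Shares of the well-supported calls spread more than read counting gives. Over the 72 G:C to A:T calls other than RRN9 and NGL2, of which 3 are on chromosome 13, the mean was 51.1 ± 9.20 (SD over calls), and 50 of the 72 lay from 40 to 60%. Read counting alone at these depths would give an SD of 6.01. Neighbouring calls are not independent, since they can be inherited together.

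Tested against 50%, most well-supported calls did not pass. Of all 161 calls, 35 (21.7%) were above 50% and 36 (22.4%) below it with an adjusted p under 0.05, against 53.4% and 17.7% of the 429 RRC1 calls. In the well-supported set 8 were above and 2 below, and 66 (86.8%) did not pass. Besides RRN9, NGL2, EDC3, PAU20 and YAR064W, the high calls were RUF23 (adjusted p = 0.0252) and intergenic calls on chromosome 4 at position 239984 (69% of 56 reads, adjusted p = 0.0117) and chromosome 7 at position 1063665 (64% of 76 reads, adjusted p = 0.0355), all by the exact binomial test. The low calls were synonymous in YBR096W (35% of 82 reads, exact binomial test, adjusted p = 0.0253) and intergenic on chromosome 16 at position 942075 (33% of 92 reads, exact binomial test, adjusted p = 0.00643). With adjustment over the 76 calls alone, 3 above and 1 below remained past the threshold. The test covers read counting only, and the shares of the 72 calls above spread more than that (SD 9.20 against 6.01). Passing it does not by itself set a call apart from that spread.

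Close neighbours gave a check on the shares. In 22 pairs of neighbouring well-supported G:C to A:T calls under 50 kb apart, 0 differed by Fisher's exact test after adjustment, and 5 did at an unadjusted p under 0.05. The widest gap was 25 percentage points, between the intergenic call at 69% on chromosome 4 and QRI1 at 44%, 35.8 kb away (Fisher's exact test, adjusted p = 0.108). EDC3 stood at 71% and GEA2, a gene of vesicle transport 12.4 kb away, at 51% (Fisher's exact test, adjusted p = 0.160). MRPS18 stood at 61% and YNL303W, 3.10 kb away, at 42% (Fisher's exact test, adjusted p = 0.160). YNL303W and the ribosomal protein gene RPS19B, 554 bases apart, were both at 42%.

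The G:C to A:T calls ran in strand-matched stretches along chromosomes. On the reference strand 47 of the 74 well-supported calls were C to T and 27 were G to A. Chromosomes 2, 4 and 13 held 8, 8 and 5 calls, all C to T, RRN9 and NGL2 among them, and chromosomes 16, 5 and 9 held 8, 6 and 3 calls, all G to A. Of the 13 chromosomes with more than 1 such call, 9 had a single orientation. Over 58 neighbouring pairs, 53 had the same orientation (91.4%, exact interval 81.0 to 97.1%).

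The 5 switches were few and mostly far apart. On chromosome 7 the orientation changed between 702142 and 993865, and on chromosome 15 between SWT1 and FAA1, 263 kb apart. On chromosome 12 the transfer RNA feature tD_GUC_L1 was G to A between PUF3 and ATG26, both C to T. On chromosome 14 MRPS18 was G to A and YNL303W, 3.10 kb on, was C to T. Pairs under 50 kb apart matched in 21 of 22 cases (95.5%), pairs from 50 to 200 kb in 18 of 19 (94.7%) and pairs over 200 kb in 14 of 17 (82.4%).

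**Figure D3:**
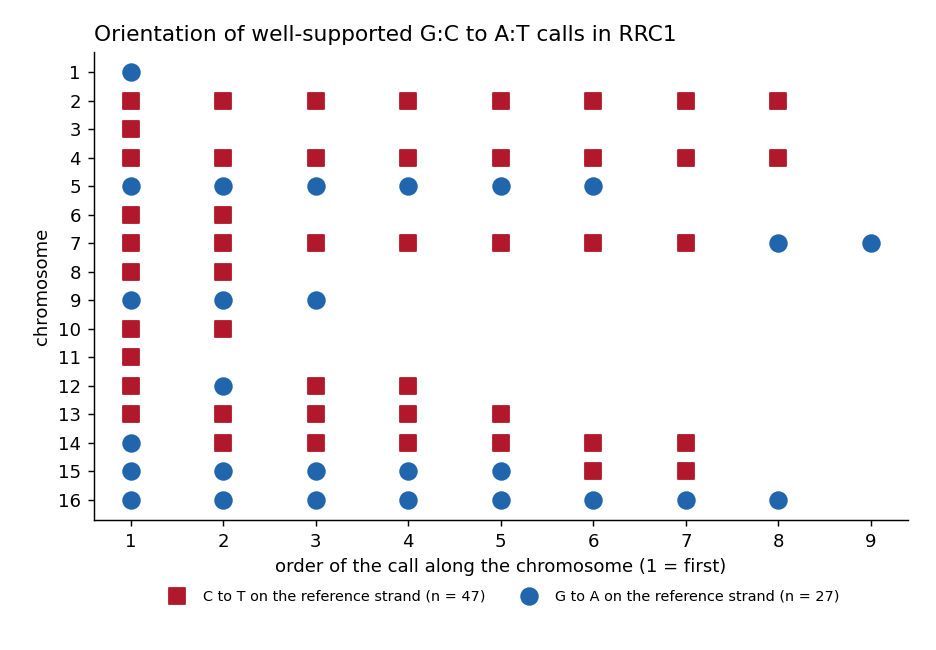
Each symbol is 1 of the 74 well-supported G:C to A:T calls of RRC1, placed by chromosome (vertical axis) and by its order along that chromosome (horizontal axis, not to distance). Red squares are C to T and blue circles G to A on the reference strand. Symbols of 1 kind fill 9 of the 13 chromosomes with more than 1 call, and 5 switches occur on chromosomes 7, 12, 14 and 15.

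The same count over calls shared with the parental list gave lower values. There, G:C to A:T neighbours matched in 35 of 54 pairs (64.8%, exact interval 50.6 to 77.3%), and with a score of at least 200 in 12 of 21 (57.1%, 34.0 to 78.2%). In the other mutant pools the well-supported calls, chosen by the same rule, matched in 75.8% of pairs in RRC5 to 100% in RRC6, the latter over only 3 pairs. RRC4, with the most pairs, had 129 of 140 (92.1%). Over all scores the RRC1 value was 85.7% of 70 pairs. These percents are given as a description, with no test, since pairs along a chromosome can be inherited together.

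Among the 40 G:C to A:T missense calls the codon change was G to A in 32 and C to T in 8, and among the 16 synonymous calls G to A in 9 and C to T in 7. Alanine to threonine was the most frequent substitution, in 7 calls that include STH1, RAD54, GNP1 and PUF3. Glutamate to lysine followed with 6 calls, among them TAF8, EAF1 and URA2. RRN9 carried the single arginine to glutamine change of the set.

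The other 85 calls are those that did not meet the rule for the well-supported set, so their lower scores follow in large part from that rule. Their median share was 29% and their median score 34, and 12 of their 48 single-base changes were G:C to A:T (25.0%), close to the calls shared with the parental list (66 of 224, 29.5%). Of the 85, 27 were above and 34 below 50% with an adjusted p under 0.05 by the exact binomial test. All 16 dinucleotide and all 12 homopolymer calls were among the 85. For the homopolymer calls the rule fixed this, since all 12 had a parental call at the position.

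Flocculin and other cell wall genes with internal repeats were among the genes with the most calls, and FLO9 held the most of any gene. FLO9 had 7 calls on 10 to 31 reads, from 25 to 100%. Its missense changes were R313K, S772R (27% of 18 reads) and S772T (31% of 16 reads). At R313K the parental list gave the position with a shared allele on 100% of 18 reads. It had calls 5 bases from S772R and 4 bases from S772T. The S772R and S772T calls were also in 3 and 2 other mutant lists. DAN4, a cell wall mannoprotein gene, had 4 calls from 18 to 34%. Among them were K245T (32% of 25 reads), Q241P (34% of 26 reads) and Q241K (19% of 31 reads). K245T and Q241P were also in 2 and 3 other mutant lists, and Q241K was in 0. Both FLO9 and DAN4 also held calls shared with the parental list. The parental list had further calls in both that RRC1 lacked. Examples are FLO9 at position 25584 (86% of 38 reads) and DAN4 at position 715050 (23% of 38 reads). Calls in these genes were therefore not particular to RRC1. YIL169C had 3 calls from 19 to 30%, with D230G and D174G. D174G was also in 5 other mutant lists and lay 7 bases from a parental call, while D230G was in 0. FLO5 had a synonymous call on 20% of 44 reads with a score of 6.98.

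Transposon and subtelomeric genes followed. The Ty reading frame YOR192C-B had A305G on 41% of 46 reads and a synonymous call on 45% of 57 reads. The Ty reading frame YGR027W-B had Q8K on 23% of 13 reads. YBL113W-A had F51L on 25% of 39 reads with a score of 6.2, and in the overlapping YBL113C that change is synonymous. A cluster of 4 intergenic calls lay within positions 525679 to 525813 of chromosome 10, at 21 to 33% of 12 to 17 reads. The part of similar copies elsewhere in the genome in these shares was not tested.

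Dinucleotide repeats changed by loss of a unit at low share. Of the 16 such calls, 14 were a single unit shorter, RPN3 was shorter by more and PPZ1 was longer. Without the LEU2 repeat the other 15 ran from 11 to 31%, with a mean of 19.3 ± 6.20 (SD over calls). They lay mostly outside coding sequence, near NOP2, a ribosome assembly gene (14% of 57 reads), MET4, the activator of sulphur metabolism (18% of 59 reads), HOM3, of threonine synthesis (21% of 52 reads), and TYW1 (19% of 47 reads). The same kind of change was seen near BNA4, of kynurenine metabolism (11% of 34 reads), RPN3, a proteasome subunit gene (14% of 55 reads), and BEM4 (16% of 36 reads). The repeat near YPL088W stood at 26% of 34 reads. In 1 of the 16, at PPZ1, the parental list had a call at the position. The parental list also held AT repeat calls of the same form that RRC1 lacked. Examples are those at YBT1 (43% of 32 reads), DMA1 (31% of 35 reads) and RNH70 (11% of 34 reads). Such calls were therefore not particular to RRC1.

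Homopolymer runs were the reverse. All 12 calls were at 88 to 100%, all 12 had a parental call at the position, and 11 were near-fixed. Their scores ran from 9.92 to 116. They include the frameshift in YCR024C-B (100% of 47 reads), a frameshift in YHL041W (88% of 45 reads) and changes upstream of TDA4 (100% of 41 reads) and YIL161W (93% of 32 reads).

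**Figure D4:**
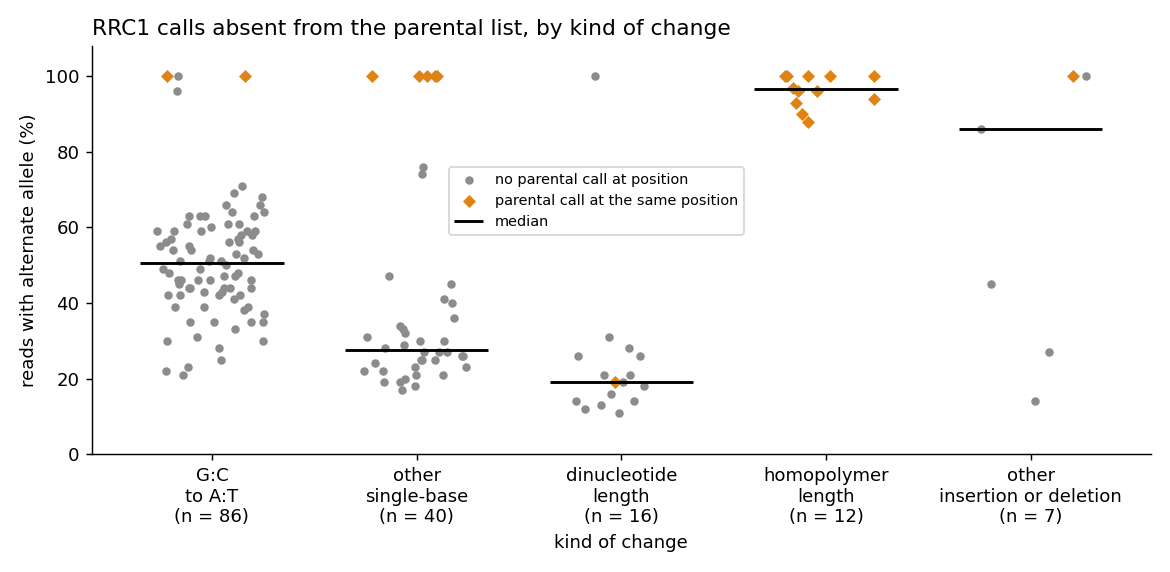
Percent of reads with the alternate allele (vertical axis) for the 161 RRC1 calls, by kind of change (horizontal axis). Grey points have no parental call at the position, orange diamonds have such a call, and black bars are medians. G:C to A:T calls centre on 50.5%, dinucleotide repeats on 19% and homopolymer runs, all with a parental call, on 96.5%.

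Other low-score calls lay beside single genes. A short deletion downstream of CDC53, the cullin gene of the SCF ubiquitin ligase, was on 27% of 44 reads. SNO3 had an upstream call on 24% of 65 reads, and ARE2, a sterol acyltransferase gene, a downstream call on 36% of 11 reads. PCL6, a cyclin gene, had an upstream deletion on 45% of 11 reads, which was also in 3 other mutant lists. The parental list had a homopolymer change 12 bases from the PCL6 deletion, on 97% of 44 reads. HKR1, a cell surface osmosensor gene, had a synonymous call on 21% of 28 reads. Downstream of YAL064W-B lay a pair of calls, on 22% of 77 reads and 21% of 83 reads, with scores of 3.54 and 10.4. An insertion at position 465181 of chromosome 11, between genes, reached 86% of 22 reads with a score of 196. The parental list had an insertion 5 bases away, at position 465176, on 80% of 35 reads with a score of 217. It had another at 465191 on 80% of 40 reads with a score of 217. A loss of an asparagine in ASG1 (NN865N) was on 14% of 35 reads.

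Besides the RRC1 insertion at position 465181, 3 calls within or beside genes fell just under the score limit. MOB2, the gene of a kinase activator of cell morphogenesis, had M22I on 30% of 66 reads with a score of 166. QCR2, of respiratory complex III, had V332I on 30% of 78 reads with a score of 191. HEF3, a translation elongation factor gene, had an upstream call 88 bases away on 35% of 45 reads with a score of 195. These 3 were G:C to A:T and in no other mutant list. Their shares were below the 33% that was the lowest in the well-supported set, except for HEF3.

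Gene lists of related function, chosen with earlier results known, are given beside the whole genome. Of 6021 protein-coding genes in the R64 table, 93 (1.54%) had a call within or next to them and 50 (0.830%) a protein change. Of the 8 UAF genes only RRN9, the gene in the title, had a call. Of 29 chromatin remodelling and mediator genes, STH1, SPT16 and EAF1 carried a missense change, and none was near-fixed. Of 26 ribosome assembly genes, NGL2 and UTP4 carried a missense change and NOP2 a repeat change downstream. Of 15 flocculin and cell wall genes, FLO1, FLO5, FLO9, DAN4 and YIL169C were hit, and the last 3 had a changed protein. No call was within or next to any of 14 RNA polymerase I subunit genes, 7 genes of the core factor and initiation, 22 of silencing and ribosomal DNA stability, 21 of recombination and genome stability or 18 of TOR and nutrient signalling. At the share of all genes, lists of these sizes would hold few or no hits, so nothing is read from these counts. The lists were not complete, and HAT1, SAS5, TAF8, NOP14, RSA1, RAD54, CHL1 and PIB2 were in none of them.

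Few calls shared with the parental pool differed in share, and all of them lay in LEU2. Of 266 calls tested in both lists, 3 (1.13%) differed by the two-sided Fisher's exact test with an adjusted p under 0.05, and 10 did at an unadjusted p under 0.05. LEU2 encodes an enzyme of leucine synthesis and is a common selectable marker, and all 3 shares were lower in RRC1. At position 91728 the share was 26% of 333 reads in RRC1 and 81% of 1272 in the parental pool (Fisher's exact test, adjusted p = 5.16e-76). At 91977 and 92106 it was 28% and 23% in RRC1 and 82% and 77% in the parental pool. Depth at LEU2 calls was 20.9 times the library median at high-score calls in the parental pool and 4.98 times in RRC1, and the part of copy number in the lower shares was not tested.

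LEU2 also held 5 of the 161 calls. Beside its upstream repeat these were synonymous changes at position 91575 (76% of 317 reads), 91965 (68% of 322 reads), 92187 (23% of 325 reads) and 92193 (22% of 307 reads). All were also called at these positions in other mutant lists, in 1 to 4 of them.

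**Figure D5:**
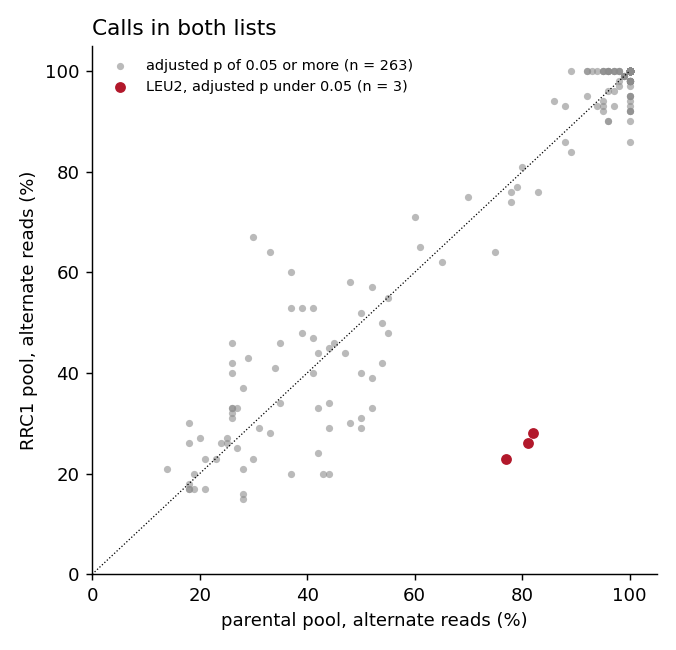
Percent of reads with the alternate allele in RRC1 (vertical axis) against the parental pool (horizontal axis) for the 266 calls tested in both lists. Grey points have an adjusted p of 0.05 or more by Fisher's exact test, red points the 3 calls past it, and the dotted line is equality. The 3 red points, all in LEU2, lie at 77 to 82% in the parental pool and 23 to 28% in RRC1.

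RRC1 had part of its 161 calls in common with other mutants. Over the other 7 mutant lists together, 104 of the 161 had no exact match, and 103 (64.0%) had no call at the position. Taken pool by pool with an exact match of alleles, RRC1 shared 13 calls with RRC6 (8.07% of the RRC1 calls and 8.50% of those of RRC6). The most were 31 with RRC4 (19.3% and 11.8%). The well-supported calls were not counted separately here, since their rule limited the other lists with a call at the position.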

How the data were processed

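Genomic DNA libraries of RRC1 and of the parental pool were analysed from the lists of all variant calls. Per the labels, DNA was sheared, made into libraries with 3 PCR cycles and sequenced on a MiSeq with paired ends. Each row of a deposited list holds a score (called MapQ in headers of the shortened lists), the read count at the position, the percent carrying the alternate allele and a predicted effect. The submitters' processing notes name Bowtie 1.0.0, MACS2 and SAMtools 0.1.19, without saying what each did. Which program called variants, with what filters and on which build, was not given in the sources used here. Percents were rounded down by the authors, since 322 of 322 RRC1 calls with at most 60 reads match that and 259 match rounding to the nearest. The alternate read number was the fewest reads that give the percent.

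Calls with at least 10 reads and absent from the parental list were tested by a two-sided exact binomial test against 0.5, with Benjamini-Hochberg adjustment over all 161. Calls in both lists and close pairs of calls were compared by Fisher's exact test. The latter test, the orientation of calls and the restriction to well-supported calls were added after the data were examined. The median depth was 47 reads over all RRC1 calls and 37 over parental ones, and 65 and 61 at calls with a score of at least 200. The members and gene lists were chosen with earlier results of these data known. Genes were named when they were RRN9, had a near-fixed call, a protein change with a score of at least 200 or a shared call past Fisher's test, belonged to a list, or held at least 3 calls. Others were named after their values were seen. RefSeq's R64 gene table gave names and neighbours for 94 of 104 entries. Positions of calls are those of the deposited lists. All 57 protein-changing calls with an entry in that table lay inside the R64 bounds of their gene. The tests were tried on simulated independent reads, at near-fixed shares or at 0.5 only. That simulation held no spread beyond read counting, so it does not check the tests under the wider spread seen here. Python 3.11.15, NumPy 2.4.6, pandas 2.3.3 and SciPy 1.17.1 were used. The 16 immunoprecipitation samples were not analysed here.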

Additional observations from a re-analysis of the deposited data

How the results depend on the processing

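Of 101 alternatives, 70 left a result within its limit, 31 moved it and 0 reversed it. The share of RRN9 was 100% in all of those run, with adjusted p from 5.62e-22 to 1.38e-21 by the exact binomial test. No setting could change that share, since the RRN9 call met every limit and kept the same reads. Its adjusted p moved only with the set of calls tested. These RRN9 settings count among the 70. The shortened list of RRC1 gave the main values wherever it was run. The 62 protein-changing calls stayed within 1.5 times their number. The 161 calls became 104 with absence from the other 7 mutant lists, 85 with a score of at least 200 and 76 in the well-supported set. The 24 near-fixed calls became 5 with absence of any parental call at the position, 3 within 5 bases, 3 with absence from the other lists, 9 with the score, 7 with single-base calls and 2 in the well-supported set. The 7 that changed a protein became 3, 2, 2, 4 and 2 under those settings, the score apart. The 36 calls below 50% became 17 with absence from the other lists, 1 with the score, 21 with single-base calls and 1 in the well-supported set. The 35 above 50% became 14 at the position, 11 within 5 bases, 7 with absence from the other lists, 13 with the score, 13 with single-base calls and 3 in the well-supported set. The G:C to A:T percent of 69.4 became 77.6 with at least 20 reads, 81.4 with absence from the other lists, 95 with the score and 97.4 in the well-supported set. The median share of 45% became 53% with the score and 51% in the well-supported set. The 3 shared calls that differed became 0 with a score of at least 200 in both lists. Fewer calls enter each of these settings by construction. No paired analysis was possible because each group holds 1 library, and no replicate could be left out. Depth of 50 to 103 reads at the well-supported calls limits how finely shares near 50% can be told apart.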
